A study of Mus musculus with 12 samples.

Results

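The genes described here are Scart1 (ENSMUSG00000025461), Scart2 (ENSMUSG00000054672), Cd5 (ENSMUSG00000024669) and Cd6 (ENSMUSG00000024670), which all code for receptors with extracellular scavenger receptor cysteine-rich (SRCR) domains. They were chosen by name, 4 of the 33696 genes in the count matrices. After ribosomal, mitochondrial and predicted Gm genes were left out, all 4 passed the filter on low counts that 14911 genes passed. The study sequenced single cells sorted from adult C57BL6/J mice with a germline Gfi1 knockout (KO) and from wild-type (WT) mice, and asked how GFI1, a transcriptional repressor, shapes γδ T cells. There were 12 libraries, 2 for each genotype in each of 3 sorts: splenic CD3+ CD4neg γδ T cells, thymic CD4neg CD8neg γδ T cells, and CD4neg CD8neg double-negative (DN) thymocytes of the stages DN1, DN2 and DN3 sorted together. A WT and a KO library of the same number were separated by hashtag antibodies from a common droplet run. The knockout was carried by every cell of the animal.

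SRCR receptors share a compact extracellular domain and are found on macrophages, lymphocytes and epithelia. CD5 and CD6 are T cell surface receptors that sit near the T cell receptor, recruit phosphatases and adaptors, and tune its signal, and the level of CD5 on developing T cells tracks the strength of that signal. SCART1 and SCART2 are orphan receptors of γδ T cells. Both mark γδ T cells that make interleukin-17 (γδT17 cells), SCART1 being typical of cells that use the Vγ6 chain and SCART2 of cells that use Vγ4.

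In mouse, Scart1 and Scart2 are neighbours on chromosome 7, and Cd5 and Cd6 are neighbours on chromosome 19. None of the 6 genes listed around each pair lies between its partners. Over their transcripts, the longest identical stretch was 23 bases between Scart1 and Scart2 and 17 bases between Cd5 and Cd6. No start site was listed for Cd6. The sequences just upstream of the start sites of Scart1, Scart2 and Cd5 are shown because these genes moved in different directions in the γδ comparisons that follow. They are the 250 bases before the start in RefSeq on GRCm38.p6, an older build than the GRCm39 of the counts, and no coordinate was converted. RefSeq lists Scart1 as Cd163l1 and Scart2 as 5830411N06Rik. For Scart2 the first of 3 listed starts is given. Capitals mark AATC, the core letters of GFI1 sites, TGCTGA, a core of MAF sites, and AGGTCA, a core of nuclear receptor sites, each on either strand.
Scart1, chr7:140218017-140218266, plus strand: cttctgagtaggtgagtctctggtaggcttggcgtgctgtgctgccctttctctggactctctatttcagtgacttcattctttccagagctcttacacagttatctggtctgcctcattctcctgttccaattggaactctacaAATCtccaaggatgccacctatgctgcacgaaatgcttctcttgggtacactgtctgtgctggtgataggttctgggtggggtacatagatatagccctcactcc
Scart2, chr7:140247051-140247300, plus strand: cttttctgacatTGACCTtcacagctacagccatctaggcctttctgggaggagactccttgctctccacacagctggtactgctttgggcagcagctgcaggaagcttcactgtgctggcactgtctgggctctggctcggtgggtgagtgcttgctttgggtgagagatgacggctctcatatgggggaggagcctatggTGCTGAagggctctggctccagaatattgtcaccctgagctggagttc
Cd5, chr19:10738975-10739224, minus strand: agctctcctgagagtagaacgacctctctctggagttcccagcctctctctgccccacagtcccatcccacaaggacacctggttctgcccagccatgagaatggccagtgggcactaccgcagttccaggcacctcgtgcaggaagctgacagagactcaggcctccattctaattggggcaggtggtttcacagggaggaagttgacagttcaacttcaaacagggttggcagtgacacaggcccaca

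The Scart1 stretch held 1 AATC and neither of the others. The Scart2 stretch held 1 TGCTGA and 1 AGGTCA (read as TGACCT) and no AATC. The Cd5 stretch held none of them. Among 32851 such stretches in RefSeq, 69.0% held AATC, 16.1% TGCTGA and 14.0% AGGTCA, and these matches describe the letters only.

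Each library kept 6795 to 11679 cells and 42091895 to 71663962 UMIs (unique molecules counted), with a median of 4947 to 6853 UMIs a cell, and 96911 of 97404 barcodes were kept. No barcode was shared within a run, and 5 to 34 were shared between libraries of different runs (at most 0.499% of a library). Gfi1 itself stood no lower under the KO label than under the WT label. In DN cells it was at 44.7 and 40.6 CPM (UMIs of a gene per 1000000 UMIs of the kept cells) in the libraries labelled WT and at 70.6 and 56.6 in those labelled KO. The splenic values were 11.8 and 18.0 against 18.1 and 18.1 CPM, and the thymic γδ values 16.5 and 17.6 against 28.9 and 19.2 CPM. Which part of the gene is deleted is not given in the sources used here, so these 3′ counts check nothing about the labels. KO and WT stand for the labels throughout. The sorts held their markers: Trdc, the δ chain constant gene, was at 1233 to 2051 CPM in the γδ libraries and at 126 to 199 CPM in the DN libraries, and Rag1 at 203 to 318 CPM in the DN libraries. As the labels do not say that the 2 libraries of a group came from different mice, p-values measure only the spread between these libraries.

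In the spleen, Scart1 was higher in KO γδ T cells and the other 3 genes were lower. Scart1 was at 234 and 277 CPM in the WT libraries and at 2949 and 3299 CPM in the KO libraries. Scart2 was at 56.6 and 63.8 CPM in WT and at 5.66 and 5.37 CPM in KO. The groups did not overlap for either gene, and the WT and KO values lay on opposite sides for these neighbours. Cd5 was at 97.9 and 116 CPM in WT and at 19.0 and 25.4 CPM in KO. Cd6 was at 67.2 and 72.7 CPM in WT and at 12.5 and 21.6 CPM in KO. Both T cell signal modulators were thus lower in each KO library than in either WT library.

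The splenic differences all passed the quasi-likelihood F test of edgeR, which gave every adjusted p here (Benjamini-Hochberg over all genes tested). The comparison called 54.8% of all genes, 28.6% as higher and 26.1% as lower in KO. Scart1 rose by 3.71 on the log2 scale (SE 0.15, adjusted p = 7.6e-08), a 13.1-fold difference. Scart2 fell by 3.36 (SE 0.22, adjusted p = 1.4e-06), Cd5 by 2.17 (SE 0.27, adjusted p = 8.8e-05) and Cd6 by 1.94 (SE 0.29, adjusted p = 0.00032). With 8166 of 14911 genes called, a call by itself does not set these 4 genes apart from the rest. Markers of other cells differed in these libraries as well. Of the αβ T cell list 5 of 6 genes fell and none rose (summed level 1745 to 1806 CPM in WT, 993 to 1031 CPM in KO). Cd4 was near the floor, at 0.095 and 0.084 CPM in WT and at 0 in KO. Of the NK cell list 2 of 3 fell (72.0 to 76.8 against 36.9 to 40.4 CPM). Of the B cell list 1 of 6 rose and 1 fell (222 to 442 against 63.2 to 120 CPM). Of the myeloid list 1 of 5 rose, Cst3, at 101.6 and 90.7 CPM in WT and at 311.8 and 336.9 CPM in KO. Cst3 made up nearly all of that list's sum (91.6 to 106 against 313 to 338 CPM), and each other member was at 3.14 CPM or less. The part of other cells in the splenic results was not tested, and in summed counts fewer cells of a type and less RNA per cell cannot be told apart.

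**Figure D1:**
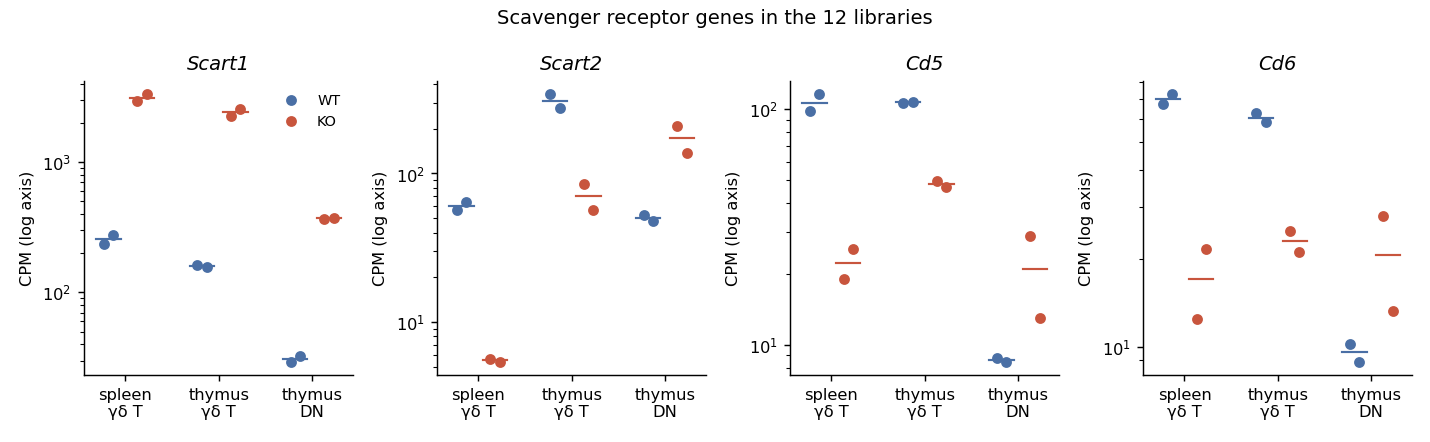
CPM of each gene (log axis) in the 12 libraries, by sort and genotype label; a point is a library and a bar the mean of 2. Scart1 sat higher in KO in all 3 sorts, at 2949 and 3299 CPM against 234 and 277 CPM in the spleen, while the other 3 genes were lower in KO γδ T cells and higher in KO DN cells.

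The thymic γδ T cells gave the same 4 directions. Scart1 was at 163 and 156 CPM in WT and at 2254 and 2543 CPM in KO. Scart2, which had its highest level of any group here, was at 341 and 274 CPM in WT and at 84.3 and 56.4 CPM in KO. The groups again did not overlap. Cd5 was at 107 and 107 CPM in WT and at 49.7 and 46.6 CPM in KO, and Cd6 at 62.7 and 58.3 CPM against 24.9 and 21.1 CPM. All 4 passed, where 49.7% of all genes did (26.1% higher and 23.7% lower). Scart1 rose by 4.04 on the log2 scale (SE 0.15, adjusted p = 2.6e-07) and Scart2 fell by 2.01 (SE 0.20, adjusted p = 3.3e-05). Cd6 fell by 1.28 (SE 0.29, adjusted p = 0.0043) and Cd5 by 1.03 (SE 0.26, adjusted p = 0.0079). The call for Cd5 was lost without KO replicate 1 (-1.03, adjusted p = 0.0509) or KO replicate 2 (-1.02, adjusted p = 0.0539). Here 4 of 6 genes of the αβ T cell list fell (3175 to 3262 CPM in WT, 1303 to 1531 CPM in KO). Of the NK cell list 1 of 3 rose, Prf1 (list sum 12.2 to 12.6 against 37.2 to 42.5 CPM). Ncr1 was at 0 and 0.014 CPM in WT and at 0 in KO. Of the B cell list 1 of 6 rose, Cd79b. That list's sum was lower in KO (156 to 158 against 64.2 to 81.6 CPM) with Ighm, at 139 and 137 against 54.7 and 37.3 CPM. Of the myeloid list Cst3 rose (95.6 and 88.7 against 185 and 174 CPM) and Itgam fell (0.54 and 0.73 against 0.19 and 0.18 CPM) among 5. Cst3 made up nearly all of that list's sum (90.3 to 96.5 against 175 to 186 CPM). The part of other cells in the thymic γδ results was not tested.

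In DN thymocytes all 4 genes were higher in KO. Scart1 was at 29.2 and 32.4 CPM in WT and at 367 and 375 CPM in KO. Scart2 was at 52.4 and 47.8 CPM in WT and at 208 and 138 CPM in KO, the opposite direction to the thymic γδ T cells. The 2 KO libraries lay close together for Scart1 and apart for the other 3 genes. Cd5 was at 8.77 and 8.44 CPM in WT and at 29.0 and 13.0 CPM in KO. Cd6 was at 10.3 and 8.89 CPM in WT and at 27.9 and 13.2 CPM in KO. For both genes KO replicate 1 was more than 2 times KO replicate 2.

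The 4 DN differences passed, where 23% of all genes did (15.2% higher and 7.73% lower). The number called was 3424, and it was 1675, 1910 and 1956 when WT replicate 1, WT replicate 2 or KO replicate 1 was left out. Scart1 rose by 3.59 on the log2 scale (SE 0.15, adjusted p = 6.4e-07) and Scart2 by 1.78 (SE 0.20, adjusted p = 0.00027). Cd5 rose by 1.26 (SE 0.27, adjusted p = 0.0086) and Cd6 by 1.08 (SE 0.29, adjusted p = 0.026), and both depended on single libraries. Without KO replicate 1 the Cd5 difference was 0.64 (adjusted p = 0.0156) and the Cd6 difference 0.51 (adjusted p = 0.265). The Cd5 call was lost without WT replicate 1 (adjusted p = 0.0655) or WT replicate 2 (adjusted p = 0.0536), and the Cd6 call without WT replicate 1 (adjusted p = 0.107) or WT replicate 2 (adjusted p = 0.127). Markers of other cells moved in these libraries too. Of the B cell list 2 of 6 tested genes rose and none fell, its summed level being 115 to 122 CPM in WT and 136 to 264 CPM in KO. Most of that sum was Ighm, at 92.8 and 97.9 CPM in WT and at 112 and 225 CPM in KO. Of the NK cell list 2 of 3 rose (6.04 to 7.77 CPM in WT, 17.3 to 32.8 CPM in KO). Of the myeloid list 1 of 5 rose, Cst3, at 83.9 and 88.0 CPM in WT and at 124 and 106 CPM in KO. Cst3 made up most of that list's sum (90.9 to 96.5 against 112.4 to 128 CPM). The myeloid marker Lyz2 was at 6.05 and 7.70 CPM in WT and at 3.56 and 5.53 CPM in KO. S100a8 was at 0 in both WT libraries and at 0.021 and 0.036 CPM in KO. Of the αβ T cell list 1 of 6 rose, Trac, at 18.8 and 20.7 CPM in WT and at 154 and 65.6 CPM in KO, so that KO replicate 1 was the higher as for Cd5 and Cd6. The part of these cells in the DN results was not tested.

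**Figure D2:**
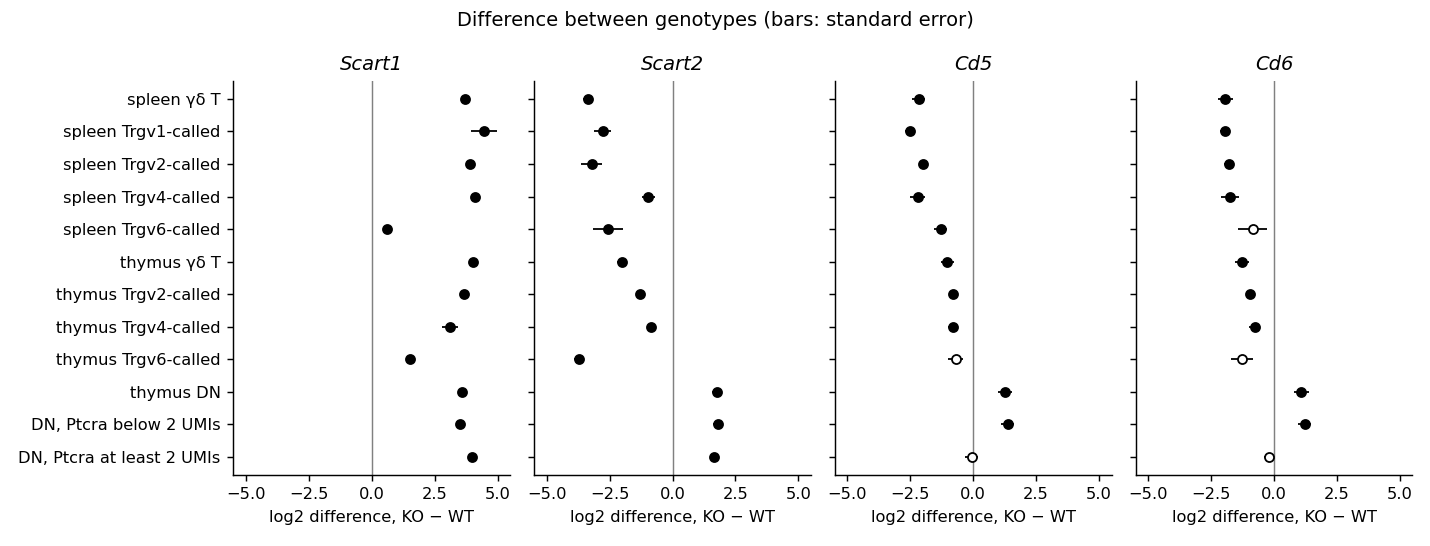
KO minus WT differences on the log2 scale (x axis) for the 4 genes in the 3 sorts and in classes of their cells (y axis); points are edgeR estimates, bars their standard errors, and open points did not pass. Scart1 lies right of 0 in every row, from 0.59 in splenic Trgv6-called cells to 4.48 in Trgv1-called ones, and Scart2 lies left of 0 in γδ T cells and right of it in DN cells.

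The size of the KO difference was compared between sorts in the same fit. Each sort had its own droplet runs, and the labels do not link the mice of different sorts. Sort, run and mice therefore cannot be told apart in any comparison between sorts, here or below. Between spleen and thymic γδ T cells, where 29.5% of genes passed (4405, but 2931 and 2634 when thymic WT replicate 1 or 2 was left out), the log2 difference of Scart2 in the spleen minus that in the thymus was -1.34 (SE 0.28, adjusted p = 0.00626). That of Cd5 was -1.14 (SE 0.36, adjusted p = 0.0400). Scart1 (-0.33, 95% interval -0.71 to 0.04, adjusted p = 0.223) and Cd6 (-0.66, 95% interval -1.44 to 0.12, adjusted p = 0.242) did not pass. Between thymic γδ T and DN cells, where 21.8% passed (3258, but 1883 to 2146 when γδ WT replicate 1 or 2, γδ KO replicate 2 or DN WT replicate 1 or 2 was left out), the differences were -3.79 for Scart2 (adjusted p = 5.6e-05), -2.29 for Cd5 (adjusted p = 0.00271) and -2.36 for Cd6 (adjusted p = 0.00365). For Scart1 it was 0.45 (95% interval 0.07 to 0.83, adjusted p = 0.127), so its KO difference in the 2 thymic sorts was not shown to differ after adjustment. The Cd5 value between spleen and thymus was fragile: of the 8 γδ libraries, leaving out spleen WT replicate 1 kept the call and leaving out any 1 of the other 7 lost it (-1.34 to -0.98, adjusted p = 0.0510 to 0.123).

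The order of the levels differed from gene to gene. Scart1 ran from KO spleen (2949 to 3299 CPM) through KO thymic γδ T (2254 to 2543) and KO DN cells (367 to 375) to WT spleen (234 to 277), WT thymic γδ T (156 to 163) and WT DN cells (29.2 to 32.4), with no overlap between neighbours. Scart2 was highest in WT thymic γδ T cells (274 to 341 CPM) and next in KO DN cells (138 to 208 CPM), and lowest in KO spleen. Its ranges in KO thymic γδ T (56.4 to 84.3 CPM) and WT splenic cells (56.6 to 63.8 CPM) overlapped. Cd5 and Cd6 were highest in WT γδ T cells and lowest in WT DN cells. Their KO levels in spleen and DN cells overlapped.

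Read across the thymus, each of the 4 genes was higher in γδ T than in DN cells in WT (47.2% or 7034 genes called, 4654 when γδ WT replicate 1 was left out), by 2.39 for Scart1, 2.64 for Scart2, 3.65 for Cd5 and 2.68 for Cd6 on the log2 scale. In KO (57.3% called), Scart1 was higher by 2.84 and Cd5 by 1.36 in γδ T cells, whereas Scart2 was lower by -1.15 (adjusted p = 0.00069). Cd6 did not pass in KO (0.32, adjusted p = 0.362, 0.82 with adjusted p = 0.0254 without DN KO replicate 1). Between spleen and thymic γδ T cells of WT mice (48.8% called), Scart1 was higher by 0.76 in the spleen and Scart2 lower by -2.27. Cd5 (0.08, adjusted p = 0.822) and Cd6 (0.29, adjusted p = 0.415) did not pass. In KO (36.6% or 5453 genes called, 3592 when spleen KO replicate 2 was left out) the splenic level of Scart2 was lower by -3.62, that of Cd5 by -1.07 and that of Scart1 higher by 0.43. Cd6 did not pass there (-0.37, adjusted p = 0.340). The Cd5 value was lost without spleen KO replicate 1 (adjusted p = 0.0729) or thymic KO replicate 1 (adjusted p = 0.0559), and the Scart1 value without either of these (adjusted p = 0.0623 and 0.209) or spleen KO replicate 2 (adjusted p = 0.151).

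The share of cells with at least 1 UMI moved with the levels. Scart1 was found in 19.4% and 29.8% of WT splenic cells and in 99.1% and 99.4% of KO splenic cells. In thymic γδ T cells the shares were 44.2% and 45.7% in WT and 88.9% and 94.4% in KO, and in DN cells 14.3% and 14.8% against 47.4% and 52.6%. Scart1 was thus found in a minority of WT and in nearly all KO splenic γδ T cells. Cells that held it also held more of it, with a median of 2 and 1 UMIs per positive splenic cell in WT and 16 and 18 in KO. After thinning every cell to 2000 UMIs the splenic shares were 13.2% and 19.4% in WT and 98.1% and 99.0% in KO. The thinned thymic γδ shares were 21.7% and 20.8% against 84.2% and 92.0%, and the thinned DN shares 5.39% and 6.13% against 33.1% and 36.1%. In none of these did the groups overlap, but with 2 libraries a side the exact two-sided permutation test cannot go below p = 0.333.

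Scart2 was found in 11.8% and 15.0% of WT and in 1.55% and 1.90% of KO splenic cells. In thymic γδ T cells it was found in 51.6% and 48.5% of WT and in 15.1% and 10.0% of KO cells, and in DN cells in 20.1% and 19.5% of WT and in 42.5% and 35.8% of KO cells. Its share therefore fell in γδ T cells and was higher in DN cells, as its level was. Cd5 was found in 33.5% and 38.2% of WT and in 9.81% and 12.9% of KO splenic cells. Its shares were 40.8% and 42.1% against 21.4% and 20.9% in thymic γδ T cells and 5.90% and 5.46% against 14.4% and 7.50% in DN cells. Cd6 was found in 25.6% and 26.8% of WT and 6.08% and 10.5% of KO splenic cells, and in 32.0% and 30.7% against 11.5% and 9.83% of thymic γδ T cells. None of these shares overlapped between the genotypes, and each permutation p was 0.333, the smallest possible.

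Free RNA in a droplet run can give UMIs to cells that do not make a gene, and WT and KO cells of a run shared their droplets. Cells with at least 2 UMIs of the B cell gene Cd79a served as a measure of free RNA in the DN sort. The measure was chosen after the data were seen. No doublet caller was run, and whether some of these cells were a B cell and another cell in the same droplet was not tested. Of 75 such KO cells 9 held Scart1 (12%, exact Clopper-Pearson 95% interval 5.64% to 21.6%), 4 held Scart2 (5.33%, 1.47% to 13.1%), 1 held Cd6 (1.33%, 0.034% to 7.21%) and none held Cd5 (0 of 75, where the limit of 3 counts that a 0 allows is a share of 4%). Their median depth was 11467 UMIs, above that of the libraries, and intervals cover counting error only. The KO shares of Scart1 and Scart2 in DN cells lie above these intervals. The WT share of Scart1 in DN cells, 14.3% and 14.8%, lies within the KO interval and was not read as expression. Nor was the 12.2% of WT cells with at least 2 Ptcra UMIs given later. The interval cannot decide whether the WT share was free RNA. It is wide, pools cells of 2 libraries (3 of 20 and 6 of 55) and comes from deeper cells. Of WT DN cells 4.11% and 4.70% held at least 2 Scart1 UMIs and 0.87% and 0.96% at least 5. Of 12 WT cells with at least 2 Cd79a UMIs 0 held Scart1 (a limit of 25% by the same 3 counts). The WT share of Cd6 in DN cells, 6.88% and 5.47%, lies within the KO interval too. The γδ sorts held at most 8 such cells a library, too few for a share. In WT spleen, 9.0% and 15.2% of cells had exactly 1 Scart1 UMI and 10.4% and 14.7% had 2 or more, and how much of the former was free RNA was not tested.

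To ask whether the whole-library differences came with a change in the cells sorted, cells were called by the leading Trgv gene among their UMIs, Trgv6 for Vγ6 and so on. The calls are uncertain because 3′ reads seldom reach the variable segment and Trgv genes share sequence. In the KO spleen, Trgv2-called cells carried Trgv6 at 98.2 and 118 CPM, against 7.53 and 6.59 CPM in WT, so a Trgv2 call does not exclude Vγ6 transcripts there. Trgv1-called splenic cells carried it at 38.1 and 65.6 CPM in KO and at 1.33 and 3.05 CPM in WT. Trgv6-called cells made up 2.40% and 2.05% of WT and 43.8% and 39.5% of KO splenic cells, and 0.60% and 0.72% of WT and 29.8% and 35.3% of KO thymic γδ T cells. How far Vγ6 cells under another call, or free RNA, enter the KO values of the other classes was not tested. Scart1 was high in WT Trgv6-called splenic cells already. Its level in them was 2144 and 1963 CPM in WT and 3041 and 3343 CPM in KO, a log2 difference of 0.59 (SE 0.15, adjusted p = 0.0239) where 12% of genes passed. In Trgv2-called splenic cells it was at 190 and 224 CPM in WT and at 2797 and 3230 CPM in KO, a difference of 3.91 (SE 0.11, 57.6% called). The Trgv6-called splenic groups did not overlap, and there were 188 and 229 such cells in WT. Without KO replicate 1 or KO replicate 2 the call in Trgv6-called cells was lost (adjusted p = 0.271 and 0.378), and 716 and 559 genes were called in place of 1379.

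Among the other splenic classes, Scart1 was higher in KO by 4.48 in Trgv1-called cells (adjusted p = 0.0189, 39% of genes called) and by 4.11 in Trgv4-called cells (27.7% called). The KO libraries held only 172 and 264 Trgv1-called and 66 and 73 Trgv4-called splenic cells. Of these Trgv4-called cells, 4 and 5 held Scart2 together with Scart1, and 1 and 2 held Scart2 alone. The Trgv1 call was lost without KO replicate 1 (adjusted p = 0.125) or KO replicate 2 (adjusted p = 0.151). Scart2 was lower in KO in all 4 splenic classes, by -2.78 in Trgv1-, -3.22 in Trgv2-, -0.96 in Trgv4- and -2.57 in Trgv6-called cells. In Trgv4-called cells, whose chain Scart2 is known to accompany, the Scart2 difference was -0.20 (adjusted p = 0.834) when 2 UMIs of the leading gene were asked for, -0.92 (adjusted p = 0.0540) without KO replicate 2 and -0.96 (adjusted p = 0.110) in DESeq2. With the run as a block the Trgv2 value did not pass (adjusted p = 0.0964), nor without WT replicate 1 (adjusted p = 0.196) or WT replicate 2 (adjusted p = 0.200), and the Trgv6 value was lost without WT replicate 1 (adjusted p = 0.333) or WT replicate 2 (adjusted p = 0.545) and with 2 UMIs of the leading gene (adjusted p = 0.0608). Cd5 was lower by -2.53, -2.01, -2.21 and -1.30 in Trgv1-, Trgv2-, Trgv4- and Trgv6-called cells, the last lost without WT replicate 2 (-0.66, adjusted p = 0.132). Cd6 was lower by -1.94, -1.80 and -1.75 in the first 3 and did not pass in Trgv6-called cells (-0.85, adjusted p = 0.463).

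**Figure D3:**
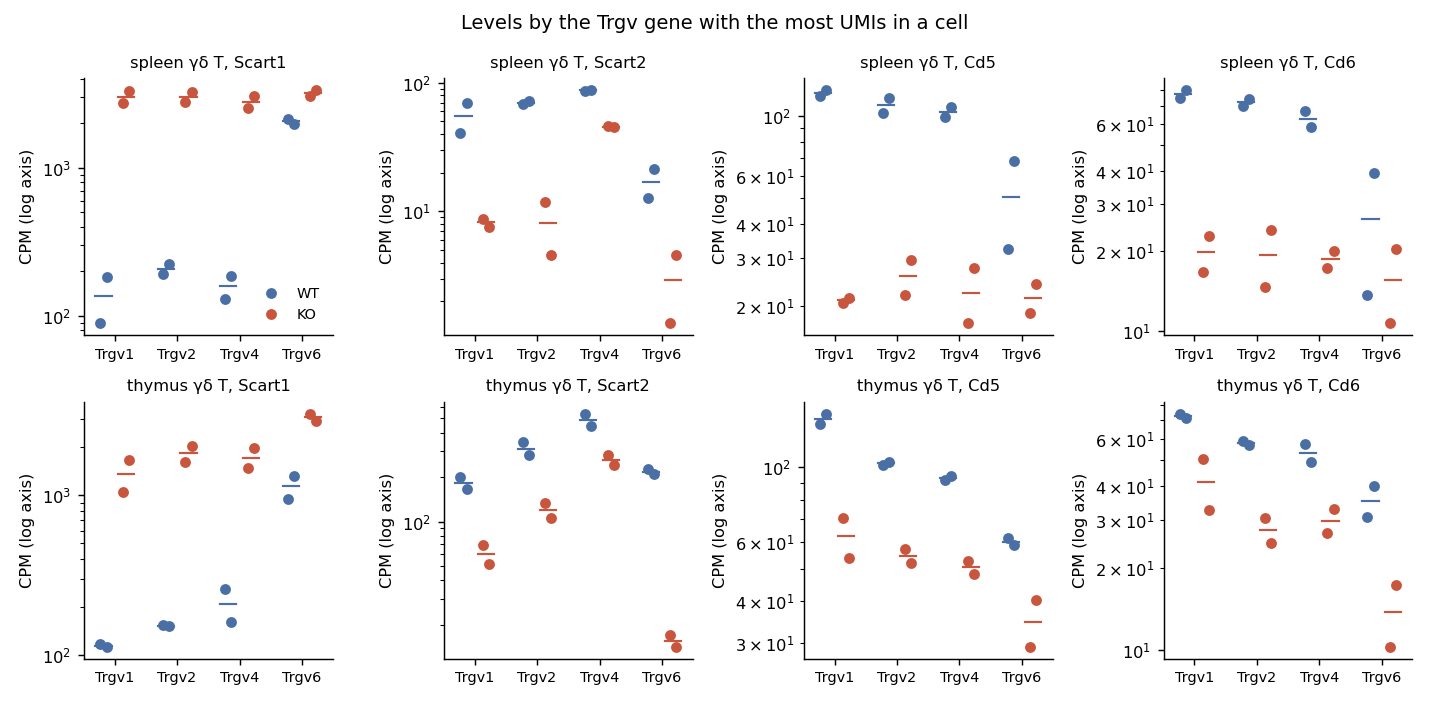
CPM of each gene (log axis) in splenic and thymic γδ T cells called by their leading Trgv gene, by genotype label; a point is a library. Scart1 in WT stands at 1963 and 2144 CPM in splenic Trgv6-called cells and at 190 and 224 CPM in Trgv2-called cells, while the KO values of the 4 splenic classes lie between 2534 and 3343 CPM.

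In the thymus, only 41 and 57 WT cells were Trgv6-called. Scart1 was at 955 and 1331 CPM in them and at 3241 and 2935 CPM in their KO counterparts, a log2 difference of 1.51 (SE 0.16, adjusted p = 5.2e-05) with 15.8% or 1739 genes called. That count was 897 when KO replicate 2 was left out, 900 when KO replicate 1 was and 1146 when WT replicate 1 was. Scart2 in the same cells was at 226 and 211 CPM in WT and at 17 and 14.1 CPM in KO, a difference of -3.73 (SE 0.18, adjusted p = 4.1e-08). The WT and KO values did not overlap for either gene. The classes also differed in other genes: Ccr9 was at 455 and 499 CPM in WT and at 39.4 and 32.1 CPM in KO, and Cd24a, a gene of immature γδ T cells, at 34.2 and 45.3 CPM against 2.91 and 3.64 CPM. In splenic Trgv6-called cells Ccr9 was at 29.8 and 55.5 CPM against 2.92 and 5.32 CPM. The part that a different make-up of the WT and KO classes, or free RNA in the few WT cells, has in these values was not tested. Cd5 (-0.70, adjusted p = 0.157) and Cd6 (-1.28, adjusted p = 0.0787) did not pass there, though Cd6 did with the run as a block (adjusted p = 0.0197). In Trgv2-called thymic cells all 4 passed (43.6% or 5680 genes called, but 3132 and 2843 when WT replicate 1 or 2 was left out), at 3.67 for Scart1, -1.30 for Scart2, -0.82 for Cd5 and -0.97 for Cd6. In Trgv4-called thymic cells (11.9% called) the values were 3.11, -0.84, -0.82 and -0.77 in the same order. The Trgv4 value of Scart1 did not pass with the run as a block (adjusted p = 0.242), and those of Cd5 and Cd6 did not with 2 UMIs of the leading gene (adjusted p = 0.235 and 0.264) or in DESeq2 (adjusted p = 0.0741 and 0.371). The Cd6 value was also lost without WT replicate 1 (adjusted p = 0.203) or KO replicate 1 (adjusted p = 0.184).

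Ptcra codes for the pre-T cell receptor α chain, which pairs with TCRβ in thymocytes on the way to the αβ lineage. DN cells with at least 2 Ptcra UMIs, called Ptcra-positive below, numbered 1607 and 2026 in WT (22.3% and 27.1% of cells) and 1048 and 2268 in KO (15.0% and 30.0%). Scart1 was at 16.8 and 18.3 CPM in WT and at 277 and 277 CPM in KO Ptcra-positive cells, and was found in 12.2% and 12.2% against 56.5% and 56.3% of them. Scart2 was at 29.5 and 28.7 CPM against 89.9 and 90.5 CPM, in 14.6% and 15.2% against 30.6% and 30.9% of cells. Within each genotype the replicates lay closer in these cells than in all DN cells for Scart2. Cd5 was at 3.95 and 4.22 CPM in WT and at 5.20 and 3.01 CPM in KO, and Cd6 at 6.37 and 4.74 CPM against 5.10 and 4.56 CPM. The groups overlapped for both.

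The log2 difference of Scart1 in Ptcra-positive cells was 3.98 (SE 0.12, adjusted p = 2.1e-10) and that of Scart2 1.64 (SE 0.10, adjusted p = 6.7e-08), where 17.1% of genes passed (10.5% higher and 6.55% lower). Cd5 (-0.06, SE 0.26, adjusted p = 0.920) and Cd6 (-0.19, SE 0.21, adjusted p = 0.618) did not pass. In the DN cells with fewer Ptcra UMIs (18% or 2456 genes called, but 5480 when KO replicate 2 was left out, 503 when WT replicate 1 was and 286 when WT replicate 2 was) all 4 passed, at 3.52 for Scart1, 1.80 for Scart2, 1.37 for Cd5 (adjusted p = 0.0114) and 1.21 for Cd6 (adjusted p = 0.0171). Without WT replicate 1 the Cd5 and Cd6 calls were lost (adjusted p = 0.131 and 0.152), and without WT replicate 2 those of Cd5, Cd6 and Scart2 (adjusted p = 0.140, 0.182 and 0.0521). The cells with fewer Ptcra UMIs held 84.5% and 73.8% of all Scart1 UMIs of the KO DN libraries. They were 85.0% and 70.0% of the cells of these libraries, so their part of the Scart1 UMIs was near their part of the cells. Whether the KO differences of Cd5 and Cd6 differed between the 2 classes of DN cells was not tested.

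The γδT17 list, which names genes of interleukin-17 producing γδ T cells, moved in part in the Ptcra-positive cells. Of 10 genes tested, 3 rose in KO and none fell, where 10.5% of all genes rose and 6.55% fell. Maf, the transcription factor of the γδT17 program, rose by 3.25 on the log2 scale. The kinase gene Blk rose by 1.71 and the transcription factor gene Sox13 by 1.15, and the other genes tested did not pass. Maf was at 7.73 and 5.52 CPM in WT and at 71.5 and 54.6 CPM in KO. The γδ constant genes Trgc1 and Trgc2 fell by 0.39 and 0.43, and Rag1 and the Notch target Dtx1 rose by 0.69 and 1.00. Ptcra itself did not pass (0.35, adjusted p = 0.104). KO Ptcra-positive cells that held Scart1 were deeper (a median of 8035 and 7613 UMIs) than those that did not (6558 and 6238). They had Maf at 77.4 and 59.0 CPM against 61.8 and 47.1 CPM in the others.

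**Figure D4:**
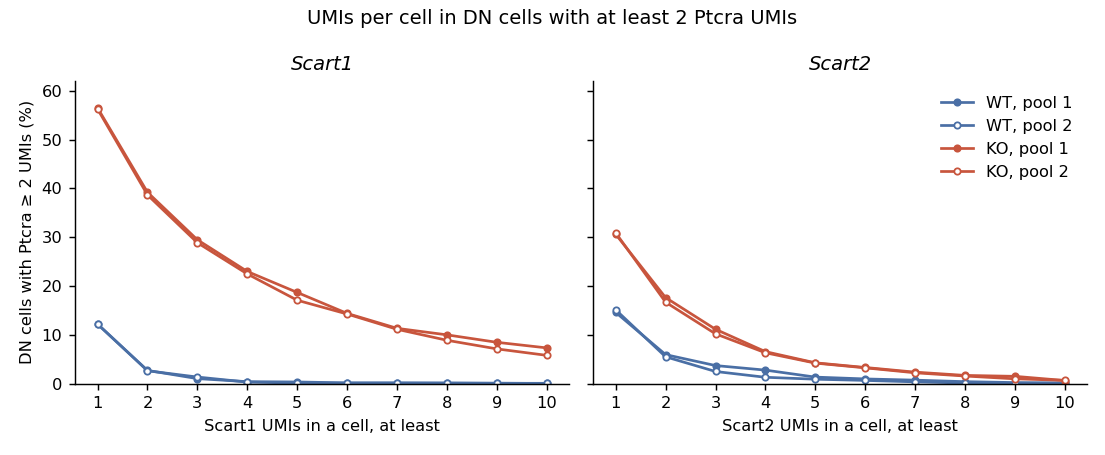
Share of DN cells with at least 2 Ptcra UMIs (y axis, percent) that hold at least the number of Scart1 or Scart2 UMIs on the x axis, for each of the 4 DN libraries. At 1 UMI the KO libraries stand at 56.5% and 56.3% for Scart1 against 12.2% and 12.2% in WT, and the KO lines stay above the WT lines up to 10 UMIs for Scart1.

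Scart1 and Scart2 were next asked for in the same cell. In WT thymic γδ T cells 24.8% and 24.3% held both, 19.4% and 21.4% Scart1 alone and 26.8% and 24.2% Scart2 alone. In KO thymic γδ T cells 11.8% and 8.14% held both, 77.0% and 86.2% Scart1 alone and 3.28% and 1.89% Scart2 alone. Of WT thymic γδ T cells with a Scart2 UMI, 48.0% and 50.01% also held a Scart1 UMI, against 40.1% and 41.6% of those without. These are shares of cells with a UMI, and how much of them was free RNA was not tested in this sort. The odds ratios of joint detection were 1.38 and 1.41 in WT and 0.37 and 0.19 in KO thymic γδ T cells. In the spleen they were 1.28 and 1.28 in WT and 0.017 and 0.054 in KO. The KO splenic ratios rest on few cells, as 72 and 68 cells there held no Scart1 UMI. Of 121 and 222 KO splenic cells with a Scart2 UMI, 30 and 17 held Scart2 alone, so most held both genes. In DN cells the odds ratios were 1.99 and 1.79 in WT and 0.54 and 0.64 in KO. In the γδ sorts the 4 WT libraries lay above 1 and the 4 KO libraries below it, which is a description over cells and carries no test. A ratio below 1 was not limited to KO. The few Trgv6-called WT cells gave 0.10 and 0.50 in spleen and 0.23 and 0.32 in thymus. Trgv2-called WT cells gave 1.26 and 1.30 in spleen and 1.21 and 1.27 in thymus. Since the share of Scart1 in WT DN cells was not read as expression, neither were the WT DN ratios.

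Depth moves with joint detection. WT DN cells with both genes had a median of 11293 and 10805 UMIs and cells with neither had 5688 and 5484. After thinning to 2000 UMIs a cell the WT odds ratios were 1.04 and 1.11 in spleen, 1.27 and 1.23 in thymic γδ T cells and 1.89 and 1.55 in DN cells. The KO ratios after thinning were 0.029 and 0.042, 0.25 and 0.14, and 0.52 and 0.55. The sides of 1 stayed as they were, with WT spleen replicate 1 at 1.04. Within DN cells with at least 2 Ptcra UMIs the ratios were 2.93 and 2.25 in WT and 1.03 and 0.89 in KO. In cells with fewer Ptcra UMIs they were 1.81 and 1.64 in WT and 0.50 and 0.57 in KO. KO Ptcra-positive cells thus held the pair about as often as their single shares give, at 17.5% and 16.8% of cells against 17.3% and 17.4% from the product of the shares.

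**Figure D5:**
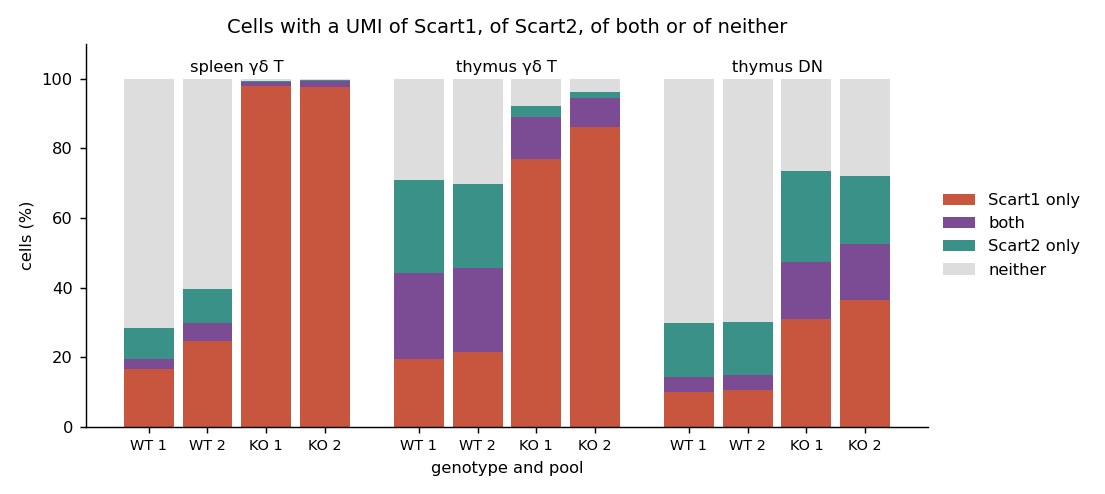
Share of cells (y axis, percent) with Scart1 only, Scart2 only, both or neither in each of the 12 libraries (x axis). Both were found in 24.8% and 24.3% of WT thymic γδ T cells, and Scart1 alone in 97.9% and 97.7% of KO splenic cells.

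Cd5 and Cd6 were detected together more often than their single shares give in all 12 libraries at the full depth and 1 UMI (odds ratios 1.44 to 6.53). The WT DN ratios, 5.61 to 6.53, rest on a Cd6 share within the interval for free RNA and were not read as expression. In KO spleen replicate 1 the ratio was 0.81 after thinning to 2000 UMIs a cell and 0.77 with at least 2 UMIs of each, against 1.59 and 2.64 in KO spleen replicate 2. Beside the Scart genes their ratios moved with depth. In thymic γδ T cells the odds ratio of Scart1 with Cd5 was 1.16 and 1.30 in WT and 0.41 and 0.47 in KO, and with Cd6 1.17 and 1.38 against 0.31 and 0.33. For Scart2 with Cd5 it was 0.55 and 0.63 in WT and 1.48 and 1.40 in KO, and with Cd6 0.52 and 0.67 against 1.68 and 1.73. After thinning to 2000 UMIs a cell, Scart1 lay below 1 in both genotypes, at 0.88 and 0.84 with Cd5 and 0.78 and 0.92 with Cd6 in WT and at 0.40 and 0.47 and 0.31 and 0.37 in KO. The thinned ratios of Scart2 were 0.44 and 0.55 with Cd5 and 0.56 and 0.61 with Cd6 in WT, and 1.11 and 1.03 and 1.43 and 1.33 in KO. WT values of Scart1 with Cd5 and Cd6 thus lay above 1 before and below 1 after thinning. WT thymic cells with at least 10 Scart1 UMIs had Cd5 at 65.7 and 83.0 CPM, and those with none at 112.3 and 110.4 CPM. The fall was not steady, as cells with 5 to 9 Scart1 UMIs had Cd5 at 87.8 and 121 CPM.

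Cells with Scart1 and no Scart2 were also summed by library and compared with cells with Scart2 and no Scart1. These classes rest on as little as 1 UMI, and 21.1% and 22.4% of WT thymic γδ T cells held exactly 1 Scart1 UMI, with no measure of free RNA in this sort. The WT Scart1-only cells were the deeper ones, with a median of 8203 and 8064 UMIs against 6201 and 5986. In WT thymic γδ T cells (1323 and 1706 against 1829 and 1931 cells, 27.4% of genes called) the log2 difference favoured the Scart1-only cells by 0.56 for Cd5 (adjusted p = 8.5e-07) and by 0.65 for Cd6 (adjusted p = 5.7e-08), and by 0.67 and 0.77 when at least 2 UMIs of the one gene were asked for. In KO (5234 and 6576 against 223 and 144 cells, 33.5% called) Cd5 was lower in them by -0.87 (adjusted p = 1.7e-05) and Cd6 by -1.16 (adjusted p = 3.2e-06). Without WT replicate 1 the WT value of Cd6 did not pass (0.60, adjusted p = 0.0635), and without KO replicate 1 the KO value of Cd5 did not (-0.45, adjusted p = 0.110). Whether the difference between the classes differed between WT and KO was not tested. The WT thymic comparison called 3504 genes, but 1266 without the library as a term, where both members passed, 482 without WT replicate 1 and 428 without WT replicate 2. In WT spleen (18.1% or 2090 genes called, but 339 without the library term, 210 without WT replicate 1 and 355 without WT replicate 2) neither Cd5 (-0.13, adjusted p = 0.336) nor Cd6 (-0.12, adjusted p = 0.516) passed. In KO spleen (11.8% or 1365 genes called, but 747 without KO replicate 1 and 614 without KO replicate 2), with 30 and 17 Scart2-only cells, neither passed either (-0.09 and -0.75, adjusted p = 0.951 and 0.573).

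Among other genes above 50 CPM, the leading ones for Scart1-only cells of WT spleen included Trdv4, a variable segment gene of the δ chain (4.61), Zbtb16, the gene of the innate-like T cell factor PLZF, and the interleukin-1 receptor gene Il1r1. Those for Scart2-only cells included Ccr9, a gut and thymus homing receptor gene, the glutamate receptor gene Gria3 and Arpp21 (-1.69, -1.39 and -2.28). In the WT thymus the Scart1-only side was led by Hmga2 and also held Slamf6 and Il2rb, the last coding for the shared interleukin-2 and interleukin-15 receptor chain, with differences from 0.82 to 1.59. The Scart2-only side was led by Maf and held Ifngr1 (-1.62 to -0.93). In the KO thymus Trdv4 again stood among the leading genes of the Scart1-only side (6.16), and Gria3, Ccr9 and Sox5 stood on the Scart2-only side (-3.06, -2.66 and -2.65).

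The amount of the Scart genes in a cell was also followed, as a description over cells of 1 library each. WT splenic cells with 10 or more Scart1 UMIs numbered 423 and 560. They had Maf at 790 and 624 CPM, against 54.7 and 52.4 CPM in cells with none. Cd5 in the same cells was at 31.8 and 50.8 CPM against 103 and 122 CPM, and Cd6 at 12.6 and 23.8 CPM against 72.5 and 78.0 CPM. WT splenic cells rich in Scart1 therefore had low Cd5 and Cd6 and high Maf, as in the KO splenic libraries. In WT thymic γδ T cells with 10 or more Scart2 UMIs, Maf was at 739 and 663 CPM and Ccr9 at 1694 and 1524 CPM. In thymic cells without Scart2 they were at 133 and 113 CPM and at 522 and 491 CPM. Cd5 was at 63.0 and 64.0 CPM against 131 and 128 CPM and Cd6 at 38.9 and 45.6 CPM against 76.7 and 66.7 CPM.

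Genes around these receptors were read by lists. Of 21 other SRCR family genes 14 could be tested, and 2 rose and 1 fell in KO spleen, 3 and 3 in KO thymic γδ T cells and 3 and 0 in KO DN cells. Over all genes tested 28.6% rose and 26.1% fell in the spleen, 26.1% and 23.7% in thymic γδ T cells and 15.2% and 7.73% in DN cells. The 3 of 14 called in the spleen lie below the 54.8% called there. But all members of the list except Lgals3bp and Prss12 were at 1.28 CPM or less in each splenic library. The part of low counts in the number called was not tested. The list's medians were -0.10, -0.44 and 0.29 on the log2 scale. Lgals3bp, which codes for a secreted galectin-binding protein, rose in all 3 sorts, by 1.93, 2.05 and 0.85 on the log2 scale. Prss12, the gene of the secreted protease neurotrypsin, was at 2.36 and 2.39 CPM in WT and at 28.9 and 33.4 CPM in KO thymic γδ T cells (3.84, adjusted p = 2.8e-05). It did not pass in the spleen (-0.04, adjusted p = 0.939), where it stood at 28.0 and 36.7 CPM in WT. Cd163, the macrophage haemoglobin scavenger receptor gene, fell by 3.13 in the spleen from a level under 1 CPM.

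Of the 19 genes whose products bind or act with CD5 and CD6, 7 rose and 9 fell in KO spleen, 6 and 5 in KO thymic γδ T cells and 9 and 2 in KO DN cells, where 54.8%, 49.7% and 23% of all genes were called. Lck, the kinase of the T cell receptor, was at 475 and 557 CPM in WT and at 19.1 and 21.7 CPM in KO spleen (-4.57). It fell by 1.54 in KO thymic γδ T cells. Ubash3a, a negative regulator of T cell receptor signals, fell by 4.77 and 2.22 in the 2 γδ sorts, and the galectin genes Lgals1 and Lgals3 rose by 2.97 and 2.65 in the spleen. In KO DN cells Ubash3b rose by 2.61 and Zap70, the kinase that Lck acts on, by 1.33. The list's medians were -0.15, -0.03 and 0.41 in spleen, thymic γδ T and DN cells, against 0.00, -0.00 and -0.02 over all genes tested.

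Of 13 genes known to answer T cell receptor signals, 11 fell and 1 rose in KO spleen and 7 fell and 2 rose in KO thymic γδ T cells, while 8 rose and none fell in KO DN cells. The medians were -2.69, -1.0 and 1.21, and the same split over all genes is given with each comparison above. The costimulator gene Cd28 was at 137 and 152 CPM in WT and at 4.46 and 6.32 CPM in KO spleen. Id3, which restrains E proteins, fell by 4.17 there and Egr3, an immediate early factor, by 3.69. Egr3 rose by 2.56 in KO DN cells, and Irf4 by 2.94. All 11 γδT17 genes rose in spleen and DN cells and 10 of 11 in thymic γδ T cells (medians 3.60, 3.38 and 3.5). The KO DN libraries stood apart for this list, with a summed level of 549 to 1488 CPM against 116 to 127 CPM in WT. Il23r was at 138 CPM in KO DN replicate 1 and at 31.8 CPM in replicate 2, and Cxcr6 at 333 and 104 CPM, with replicate 1 the higher as for Cd5 and Cd6. Of 9 γδT1 genes, those of the interferon-γ program, 7 fell in the spleen, 4 fell in the thymic γδ T cells and 7 rose in DN cells (medians -3.82, -1.16 and 2.19). The receptor genes Trdc, Cd3e, Trgc1 and Trgc2 gave 3 rises in each γδ sort (1 fell in the thymus), and 2 fell and none rose in DN cells.

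Genes whose level ran most like a member's were ranked over the 12 libraries by Pearson's r of log2 CPM among 6720 genes. The libraries share sorts and genotypes, so r describes only how alike the patterns look. For Scart1 the nearest were Actn2 (0.988), Camk2n1 (0.985) and the chemokine receptor gene Ccr2 (0.981). For Scart2 they were Slc9a9 (0.986), Dipk2a (0.981) and the γδ receptor segment Trgv4 (0.971). For Cd5 A430093F15Rik (0.976) and Chic2 (0.975) were among the nearest, and for Cd6 Osbpl9 (0.974) and Rgs3 (0.972). Between members, Cd5 and Cd6 had r = 0.964 and Scart1 and Scart2 r = -0.476.

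Genes next to the pairs did not all share their direction, and with 54.8%, 49.7% and 23% of all genes called in spleen, thymic γδ T and DN cells nothing is read from their counts. Of the 6 genes flanking Scart1 and Scart2, all of them olfactory receptor genes, 5 were tested, and 3 rose in KO spleen, 1 in KO thymic γδ T and 4 in KO DN cells, while 1 fell in the thymic γδ T cells. Or13a27 rose in all 3 sorts, by 3.88, 5.93 and 3.77 on the log2 scale. Of the 6 genes flanking Cd5 and Cd6, 5 were tested, and 4 rose and 1 fell in KO spleen, 3 and 1 in KO thymic γδ T cells and 2 and 0 in KO DN cells. Slc15a3, a peptide and histidine transporter gene of lysosomes, rose by 6.39 in each γδ sort and by 5.41 in DN cells. Vwce was the 1 that fell, by 1.45 in the spleen (adjusted p = 0.0407) and by 1.89 in thymic γδ T cells (adjusted p = 0.00236).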

How the data were processed

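Sorted cells were profiled with the 10x Genomics 3′ assay. The deposited values are UMI counts for each gene in each cell, unnormalized, which the authors made from their reads and separated by hashtag (Cell Ranger 8.0.1 and GRCm39 are named in the submitters' processing notes). Genotype and number of each of the 12 demultiplexed libraries came from the labels' hashtag assignments. The 4 genes and all gene lists were chosen with earlier results of these data known.

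Cells with at least 500 UMIs, 200 genes and at most 20% mitochondrial UMIs were kept. No doublet caller was run, and hashtags removed mixed droplets only where the hashtags differed. CPM was computed per 1000000 UMIs of kept cells. UMIs were summed per library and tested in edgeR 4.0.16 (TMM, filterByExpr, robust quasi-likelihood, R 4.3.3). Whole sorts used a fit of 12 libraries. Classes of cells used the 4 libraries of their sort, and Scart1-only against Scart2-only cells used the library as a term. Benjamini-Hochberg adjustment covered all genes tested, with a threshold of 0.05. The SE of a log2 difference was its absolute size divided by the square root of F. Intervals of log2 differences used the normal distribution with that SE, which makes them too narrow with so few libraries. Ribosomal, mitochondrial and predicted Gm genes (9548 of 33696) were left out before the fits. They thus enter no main test, adjustment or share of genes called, and none is named. Genes named were the members, those of the lists, the 5 nearest in likeness above a mean of 20 CPM (pseudocount 1) and the leading 8 in each direction of the split above 50 CPM. Genes named from a list were chosen from its called members after their values were seen, and some genes are not reported here. The code was tested on simulated counts with known changes.

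Replicate numbers mark a droplet run that WT and KO share, so they pair the libraries within a sort. Deviations from the group means of same-numbered WT and KO libraries correlated at 0.29 in spleen, 0.063 in thymic γδ T and 0.18 in DN cells. Depth is given in the report, and with 2 libraries a group the spread is estimated from few values. Alternatives were DESeq2 1.42.0, no filter on low counts, the run as a block, other UMI limits and leaving out each library.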

Additional observations from a re-analysis of the deposited data

Results flagged for a closer look

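The KO difference depended on the sort for 5 of the results, by the interaction term of the fit of 12 libraries in edgeR (adjusted p below the threshold). Between spleen and thymic γδ T cells the terms were -1.34 for Scart2 and -1.14 for Cd5 on the log2 scale. The Cd5 term lost its call when any 1 of 7 of the 8 γδ libraries was left out (adjusted p = 0.0510 to 0.123). Between thymic γδ T and DN cells they were -3.79 for Scart2, -2.29 for Cd5 and -2.36 for Cd6. In the latter comparison these 3 genes were lower in KO γδ T cells and higher in KO DN cells.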

How the results depend on the processing

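Of 852 values under alternatives to 120 results, 740 counted as kept, 51 lost a call, 2 gained one, 10 changed sign and 49 others moved. For a test of a member, kept means the same direction and side of the threshold. A number of genes called was kept if it stayed within a set fold of the main count. A share of cells was kept by its direction alone, and an odds ratio if it stayed within the SD of the main value. The cause was not tested for any of the 852 values beyond what the alternative itself removes.

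The Scart1 and Scart2 differences in the 3 whole sorts kept their calls and directions under each alternative run. Cd5 in thymic γδ T cells ranged from -1.04 to -1.02 on the log2 scale with single libraries left out. In DN cells 3424 genes were called, 2074 with only the 4 DN libraries fitted and 1675 to 5038 with single libraries left out. With only those 4 libraries Cd5 was 1.29 (adjusted p = 0.0555) and Cd6 1.10 (adjusted p = 0.0698), and without the filter on low counts Cd6 was 1.09 (adjusted p = 0.0998). With single libraries left out Cd5 in DN cells ranged from 0.64 to 1.66 and Cd6 from 0.51 to 1.45. In DN cells with fewer than 2 Ptcra UMIs the same ranges were 1.57 to 2.02 for Scart2, 0.91 to 1.74 for Cd5 and 0.76 to 1.58 for Cd6.

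The 10 values that changed sign belonged to results that had not passed. In Ptcra-positive cells Cd5 was 0.48 with at least 1 Ptcra UMI, 0.19 with at least 3 and -0.37 to 0.29 with single libraries left out, and Cd6 was 0.028 with at least 1 UMI. Cd6 between KO thymic γδ T and DN cells ranged from -0.12 (without DN KO replicate 2) to 0.82, Cd5 between WT spleen and thymus from -0.050 (without spleen WT replicate 2) to 0.26, and Cd6 in splenic Trgv6-called cells from -1.36 to 0.13 (without WT replicate 2). Cd5 in the split of KO splenic cells was 0.061 with at least 2 UMIs of one gene and ranged from -0.35 to 0.37 (without KO replicate 1). The log2 odds ratio of joint detection with at least 2 UMIs was 0.32 in WT spleen, 0.27 in WT thymic γδ T, 1.68 in WT DN and -2.73 in KO thymic γδ T cells. Thinned, it was 0.10, 0.32 and 0.78 in the 3 WT sorts, and 0.34 in WT spleen without the deepest 5% of cells.

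With the droplet run as a replicate block, Scart1, Scart2, Cd5 and Cd6 differed by 3.71, -3.36, -2.18 and -1.98 in the spleen, and apart from the Trgv class values given beside their results the block changed no other call. In Ptcra-positive cells it called 4013 genes in place of 2104.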
